A study of Mus musculus with 2 samples.

Results

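Long intergenic noncoding RNAs (lincRNAs) are transcripts that code for no protein and arise between protein-coding genes. The regions described here are the promoters of such genes. They were the 5′ ends of mouse genes that GENCODE vM21 types as lincRNA on the autosomes, each with 1 kb on either side, and none had a protein-coding transcript start within 5 kb. Of 5209 autosomal lincRNA genes 4558 met this rule, and they stand among 51229 5′ ends of autosomal genes of every type. The 5′ ends left out by the 5 kb rule numbered 651. The windows of 310 members overlapped that of another member, so neighbouring members can share a peak.

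DNase-seq maps chromatin that the nuclease DNase I can cut. The thymus of male mice aged 36 days, of the F1 hybrid strain B6CASTF1/J, gave 2 libraries. The libraries form 1 group, are labelled biological replicates 1 and 2, and are called replicate 1 and replicate 2 below. The labels describe separate males yet list 1 donor identifier for both, which leaves unclear how many mice were used. With 1 group there is nothing to test between conditions, and every interval below is a 95% Wilson interval that covers the counting of regions only.

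In most mammals only a minority of annotated lincRNA genes is active in any given tissue, and lincRNA expression is as a rule more tissue-restricted than that of protein-coding genes. An active promoter is usually free of nucleosomes, which leaves it open to DNase I. Proteins bound within the open stretch shield a few bases from cutting, and such a shielded stretch is called a footprint. The thymus consists mainly of thymocytes, the developing T cells, beside epithelium, stroma and other blood cells.

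The 2 libraries stood apart. Promoters of 20 thymocyte marker genes were open at 2 genes in replicate 1 and at 18 in replicate 2. Cd3e, Cd4, Cd8a, Rag1 and Bcl11b had no promoter peak in replicate 1, and their signals in replicate 2 were 5.66, 1.92, 10.1, 4.75 and 9.04. Of 19 genes of the pancreatic acinar cell, the cell that makes digestive enzymes, 19 were open in replicate 1 and 4 in replicate 2. Their summed promoter signal was 96.8 in replicate 1 and 8.75 in replicate 2, while that of the thymocyte genes was 4.81 and 122. Of 8 genes of thymic epithelium 4 were open in replicate 1 and 3 in replicate 2. Among all autosomal protein-coding genes 63.3% were open in replicate 1 and 60.0% in replicate 2, by a peak within 1 kb of any coding start. The thymocyte and acinar markers thus go against the tissue label for replicate 1. What this difference contributes to the lincRNA results was not tested, and each result is given for both libraries on their own. In a tissue, fewer cells of a type and less opening per cell cannot be told apart. Each library has a shorter and a longer deposited peak list. The shorter lists, with 85367 peaks in replicate 1 and 60644 in replicate 2, were used throughout, and the depth of the libraries is unknown.

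The promoter peaks below carry the findings that follow, and they are shown from the reference genome (mm10, GRCm38), not from the alleles of the hybrid mice. Each is printed 5′ to 3′ on the strand of its lincRNA gene, with bases inside a footprint in capitals. The first 2 were open in both libraries: the strongest peak of all (chr17:39846781-39846920, + strand) and the peak upstream of Malat1, an abundant RNA of nuclear speckles (chr19:5803561-5803680, − strand). Footprints are those of replicate 2.
Gm42418: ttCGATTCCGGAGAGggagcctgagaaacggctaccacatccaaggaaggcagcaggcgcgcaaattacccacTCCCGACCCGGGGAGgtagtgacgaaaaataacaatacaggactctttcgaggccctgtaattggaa
Malat1: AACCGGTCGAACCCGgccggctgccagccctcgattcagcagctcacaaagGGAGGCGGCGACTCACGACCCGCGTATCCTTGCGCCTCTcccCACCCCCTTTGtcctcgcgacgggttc
Gm12249 was open in replicate 1 alone (chr11:57973261-57973480, − strand; footprints of replicate 1).
Gm12249: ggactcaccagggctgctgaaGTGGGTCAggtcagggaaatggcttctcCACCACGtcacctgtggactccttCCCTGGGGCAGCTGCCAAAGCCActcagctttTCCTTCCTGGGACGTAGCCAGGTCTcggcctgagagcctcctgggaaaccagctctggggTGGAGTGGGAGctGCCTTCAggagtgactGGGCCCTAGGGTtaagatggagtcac
The last 3 were open in replicate 2 alone and lie downstream of the annotated 5′ ends, at 485 to 704, 674 to 913 and 766 to 1005 bp: BC028471 (chr5:149368121-149368340, + strand), Gm26551 beside Tcf7, a transcription factor of the T lineage (chr11:52268601-52268840, − strand), and Gm44174 beside Cd8a, which encodes a chain of the T cell coreceptor CD8 (chr6:71353801-71354040, + strand). Footprints are those of replicate 2.
BC028471: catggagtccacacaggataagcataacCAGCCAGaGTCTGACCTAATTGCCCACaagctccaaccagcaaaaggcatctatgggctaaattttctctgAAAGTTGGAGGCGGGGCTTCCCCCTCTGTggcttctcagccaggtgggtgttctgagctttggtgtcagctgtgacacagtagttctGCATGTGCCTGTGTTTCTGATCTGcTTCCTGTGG
Gm26551: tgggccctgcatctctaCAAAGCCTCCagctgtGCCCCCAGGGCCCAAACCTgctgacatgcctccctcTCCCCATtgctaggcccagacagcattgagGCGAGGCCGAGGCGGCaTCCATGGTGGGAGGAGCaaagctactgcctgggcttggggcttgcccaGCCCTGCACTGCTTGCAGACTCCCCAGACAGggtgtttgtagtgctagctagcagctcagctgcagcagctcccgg
Gm44174: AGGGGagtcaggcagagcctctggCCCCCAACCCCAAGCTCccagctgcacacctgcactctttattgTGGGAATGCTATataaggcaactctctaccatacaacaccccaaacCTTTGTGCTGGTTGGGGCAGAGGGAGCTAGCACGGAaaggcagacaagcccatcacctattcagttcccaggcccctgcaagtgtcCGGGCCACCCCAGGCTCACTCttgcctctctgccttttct
Gm42418 is shown as the strongest member open in both libraries. BC028471 is shown as the strongest open in replicate 2 alone among those with no peak in either list of replicate 1. The others were chosen after their values were seen. The Gm12249 peak held 1 E box (CAGCTG) inside a footprint. The E boxes of Gm26551 (2), Gm44174 (1) and BC028471 (1) lay at least partly outside footprints. The Malat1 peak held none of the 9 short motifs searched.

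A promoter was called open when a peak overlapped its window by at least 1 bp. LincRNA promoters were open in 665 of 4558 cases in replicate 1 (14.6%, interval 13.6 to 15.6) and in 573 in replicate 2 (12.6%, interval 11.6 to 13.6). The same call held for 59.9% and 56.5% of the 5′ ends of 20807 autosomal protein-coding genes, and for 32.9% and 30.7% of those of all autosomal genes. Both libraries were open at 365 lincRNA promoters (8.01%, interval 7.25 to 8.83), against 53.2% of protein-coding and 27.6% of all 5′ ends. At least 1 library was open at 873 members (19.2%, interval 18 to 20.3), and 3685 members (80.8%) had a peak in neither. Protein-coding 5′ ends that, like the members, had no start of another coding gene within 5 kb were open in 55.0% in replicate 1 and 51.2% in replicate 2. The intervals of lincRNA and protein-coding shares did not overlap in either library.

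Openness in 1 library alone ran differently. Replicate 1 alone was open at 300 lincRNA promoters (6.58%, interval 5.90 to 7.34), against 6.72% of protein-coding and 5.27% of all 5′ ends. Replicate 2 alone was open at 208 (4.56%, interval 3.99 to 5.21), against 3.36% and 3.12%. For replicate 1 the interval holds the protein-coding share, and for replicate 2 it lies above that share (interval 3.13 to 3.62). The libraries shared fewer of the open promoters, since 54.9% of the lincRNA promoters open in replicate 1 were open in replicate 2 too (interval 51.1 to 58.6), against 88.8% of protein-coding ones. In the other direction the shares were 63.7% (interval 59.7 to 67.5) and 94.0%. Without replicate 1, or without replicate 2, the share called open is that of the remaining library given above.

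**Figure D1:**
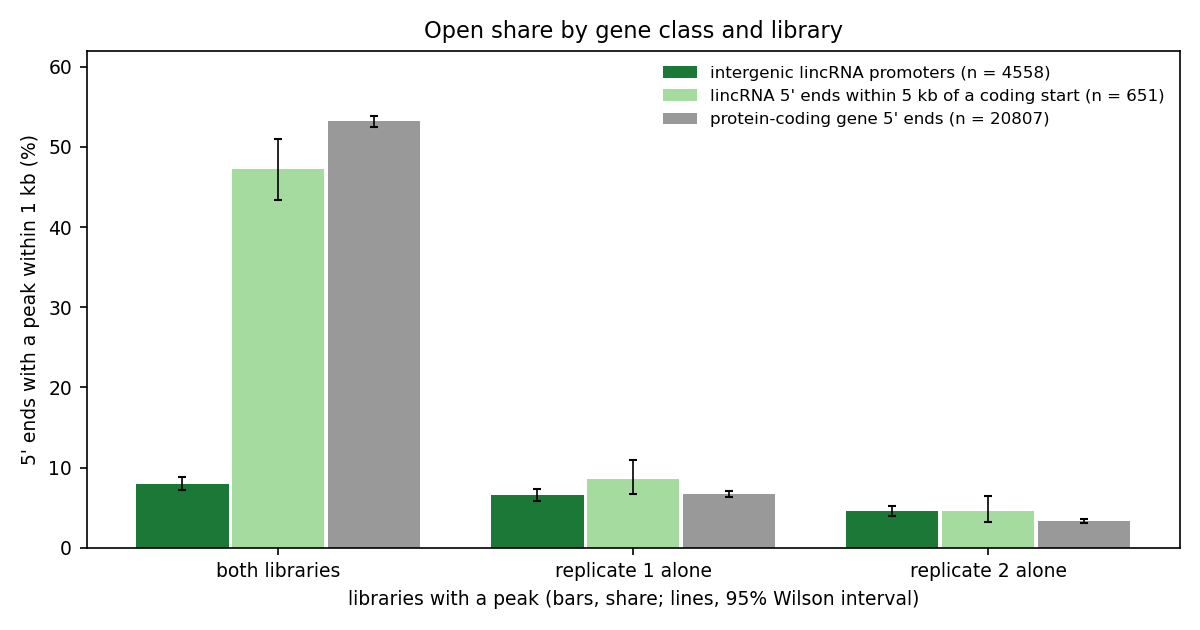
Share of 5′ ends (vertical axis, %) with a peak within 1 kb in both libraries, in replicate 1 alone or in replicate 2 alone, for intergenic lincRNA genes, lincRNA genes near a coding start and protein-coding genes; lines are 95% Wilson intervals. The lincRNA bar is far below the others for both libraries (8.01%, against 47.2% and 53.2%) and near them for replicate 1 alone (6.58%, against 8.60% and 6.72%) and replicate 2 alone (4.56%, against 4.61% and 3.36%).

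LincRNA genes close to coding starts were open far more often. The 651 left out were open in 55.8% in replicate 1 and 51.8% in replicate 2. The 359 of them within 1 kb of a coding start, whose window holds that start, were open in 78.6% and 73.8%. At the border the change was not abrupt. Among members 5001 to 6000 bp from a coding start 12 of 64 were open in each library, and among genes 4001 to 5000 bp away, just outside the rule, 13 of 65 were open in replicate 1 and 14 of 65 in replicate 2.

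Within the members, the open share was lower far from coding genes. It was 21.2% in replicate 1 (interval 16.8 to 26.4) and 18.7% in replicate 2 (interval 14.6 to 23.7) at 5 to 10 kb from the nearest coding start. It stayed near that level up to 50 kb, with 20.8% and 18.9% in the bin from 20 to 50 kb. Between 100 and 200 kb it was 12.1% in replicate 1 and 8.77% in replicate 2, between 200 and 500 kb 6.84% and 6.72%, and beyond 500 kb 3.13% and 1.25%. Of the 319 members beyond 500 kb 1 was open in both libraries.

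The open share also differed with base composition. CpG islands, stretches rich in CpG dinucleotides, mark many broadly used promoters in mammals. A promoter was called CpG-rich when the 300 bases around its 5′ end (250 before to 50 after) had an observed to expected CpG ratio of at least 0.6 and at least 50% GC. Only 177 lincRNA promoters (3.88%) met this, against 42.5% of protein-coding ones. CpG-rich lincRNA promoters were open in 54.2% in replicate 1 (interval 46.9 to 61.4) and in 55.9% in replicate 2 (interval 48.6 to 63.0), and CpG-poor ones in 13.0% and 10.8%. CpG-rich protein-coding promoters were open in 92.3% and 89.9%, and CpG-poor ones in 35.9% and 31.9%. At like CpG class the lincRNA promoters were thus open less often in each library, with intervals that did not overlap. Of the members open in both libraries 24.1% were CpG-rich, against 2.67% of those open in replicate 1 alone, 5.29% of those open in replicate 2 alone and 1.90% of those open in neither.

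**Figure D2:**
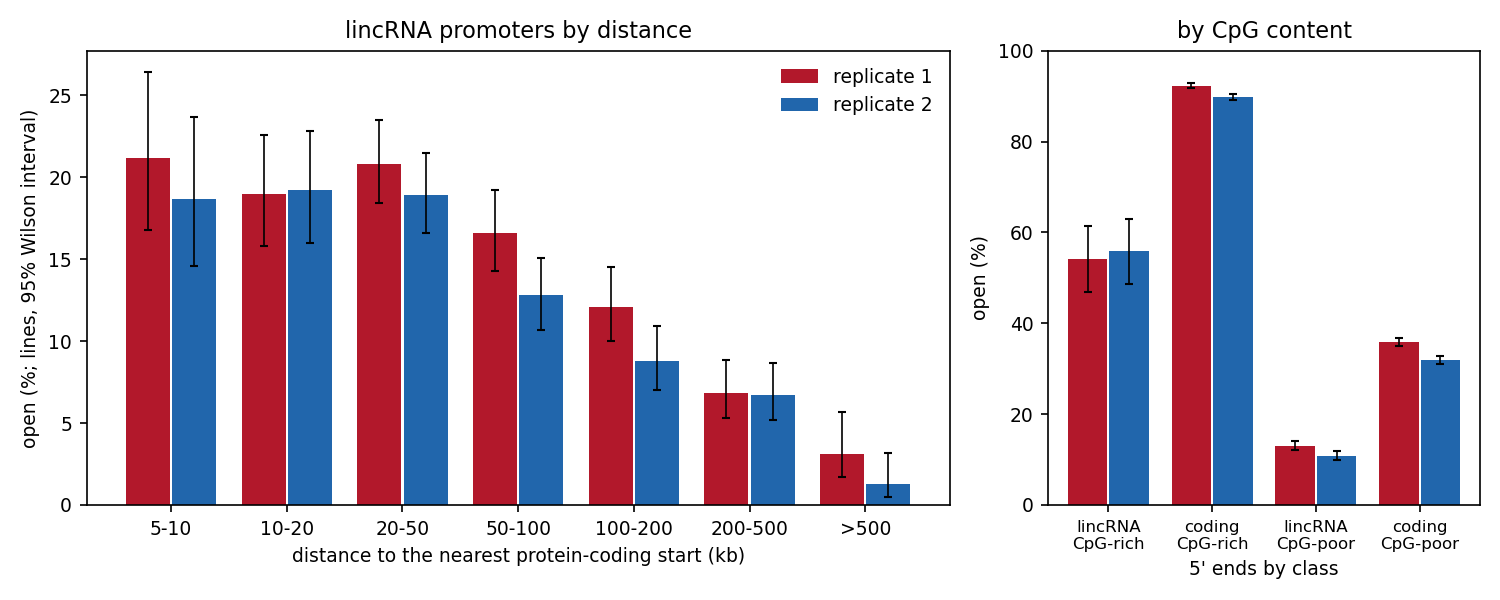
Open share (vertical axes, %) of lincRNA promoters by distance to the nearest protein-coding start in kb (left), and of lincRNA and protein-coding promoters by CpG class (right), in replicate 1 (red) and replicate 2 (blue); lines are 95% Wilson intervals. The share is near 20% up to 50 kb and 3.13% and 1.25% beyond 500 kb, and in each CpG class the lincRNA bars are below the protein-coding ones.

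The open share was lower at repeat-rich promoters. Promoters with at least 50% of these bases masked as repeats were open in 4.34% in replicate 1 and 5.31% in replicate 2 (n = 715), against 19.1% and 16.8% of those with no masked base (n = 1010). Single-exon genes were open in 17.4% and 14.3% (n = 230), and spliced ones in 14.4% and 12.5%. The 192 members whose 5′ end lies inside a protein-coding gene body were open in 14.6% and 12.5%, close to the 14.6% and 12.6% of the rest. Genes with a symbol other than a Gm number, a Riken clone name or a clone accession were open in 36.9% in replicate 1 and 32.1% in replicate 2 (n = 84), and those with a Gm number in 12.9% and 11.2% (n = 3175).

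Some windows held the start of another noncoding gene. The 341 members with such a start were open in 25.8% in replicate 1 and 24.9% in replicate 2, against 13.7% and 11.6% of the members without. Of 11 members with a tRNA gene in the window 9 were open in both libraries (81.8%, interval 52.3 to 94.9). A peak in such a window cannot be assigned to 1 of the genes. Among the strongest, the most footprinted and the well-studied open members described below this limit holds for Malat1, Neat1, BC028471, Snhg12, Lncpint, Mir17hg, Pvt1, Epb41l4aos, H19, Gm6410 and Gm35035.

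Peaks gathered at the lincRNA 5′ ends. In bins of 200 bp, the bin just upstream of the 5′ end held a peak in 8.14% of members in replicate 1 and in 6.89% in replicate 2. Bins 5 to 10 kb away held one in a median of 1.70% (1.38 to 2.19) and 1.27% (1.05 to 1.56). For protein-coding genes the highest bins reached 49.6% and 46.4%, over 2.54% and 1.90% far away. The midpoint of the strongest window peak lay within 250 bp of the 5′ end in 48.1% of open members in replicate 1 and 48.9% in replicate 2, against 75.9% and 77.3% of open protein-coding genes. It covered the 5′ end itself in 32.3% and 33.9% of open members, against 63.8% and 64.8%.

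**Figure D3:**
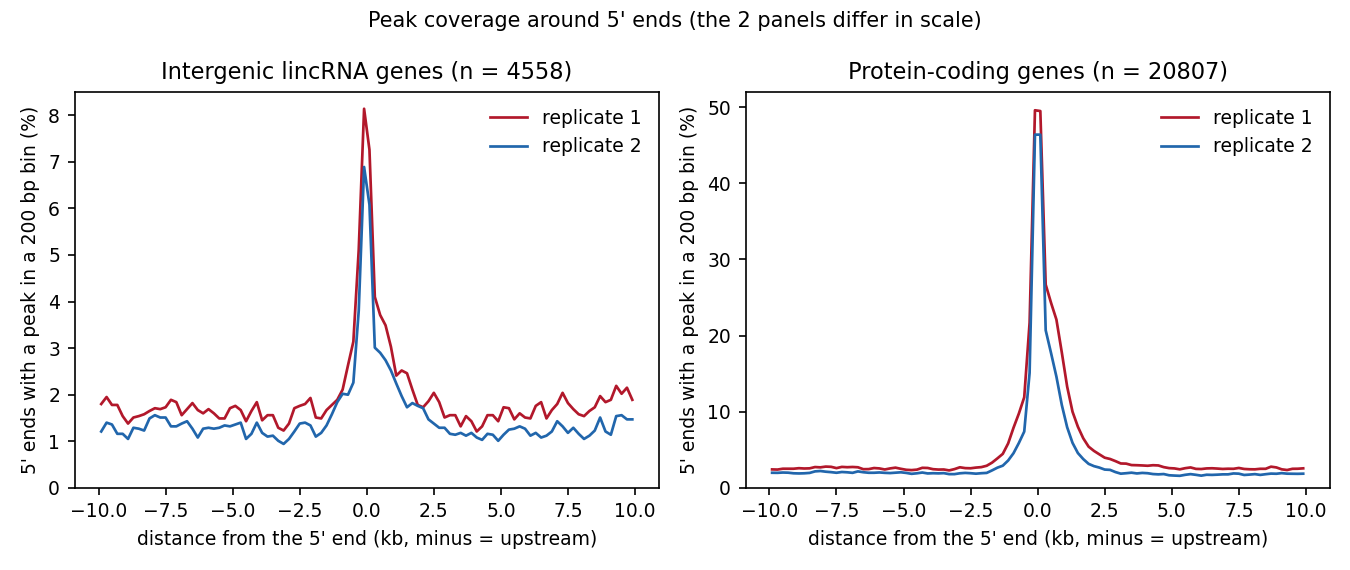
Share of 5′ ends with a peak in each 200 bp bin (vertical axis, %) against the distance from the 5′ end in kb, for intergenic lincRNA genes (left) and protein-coding genes (right) in both libraries; the scales of the panels differ. Both classes peak at the 5′ end, the lincRNA genes at 8.14% and 6.89% and the protein-coding genes at 49.6% and 46.4%.

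The peaks at open lincRNA promoters were weaker than those at open protein-coding ones. Signal is column 7 of the deposited peak lists. Its scaling between libraries is not stated, so ranks within a library are given beside it. The median signal of the strongest window peak was 1.65 at the 665 open members of replicate 1 (quartiles 0.839 and 3.02) and 2.04 at the 573 of replicate 2 (quartiles 1.11 and 4.52). At open protein-coding genes it was 4.84 and 8.15. In percentiles of all peaks of the library the lincRNA medians were 60.3 and 56.6, and the protein-coding medians 90.2 and 88.4. Peaks among the strongest 10% of the library stood at 12.5% of open members in replicate 1 and 6.98% in replicate 2, against 50.5% and 45.0% of open protein-coding genes.

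Members open in both libraries had stronger peaks than the rest. Their median signal was 2.47 in replicate 1 and 2.93 in replicate 2, and that of members open in 1 library alone was 0.980 and 1.54. Across the 365 shared members Spearman's correlation of the signals was 0.679, against 0.817 across 11061 protein-coding genes, given as a description across sites that share the library and its depth. In both libraries 31 of the 365 were among the strongest 10% of peaks. The strongest peaks of the 2 libraries overlapped each other at 328 of 365 members (89.9%).

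**Figure D4:**
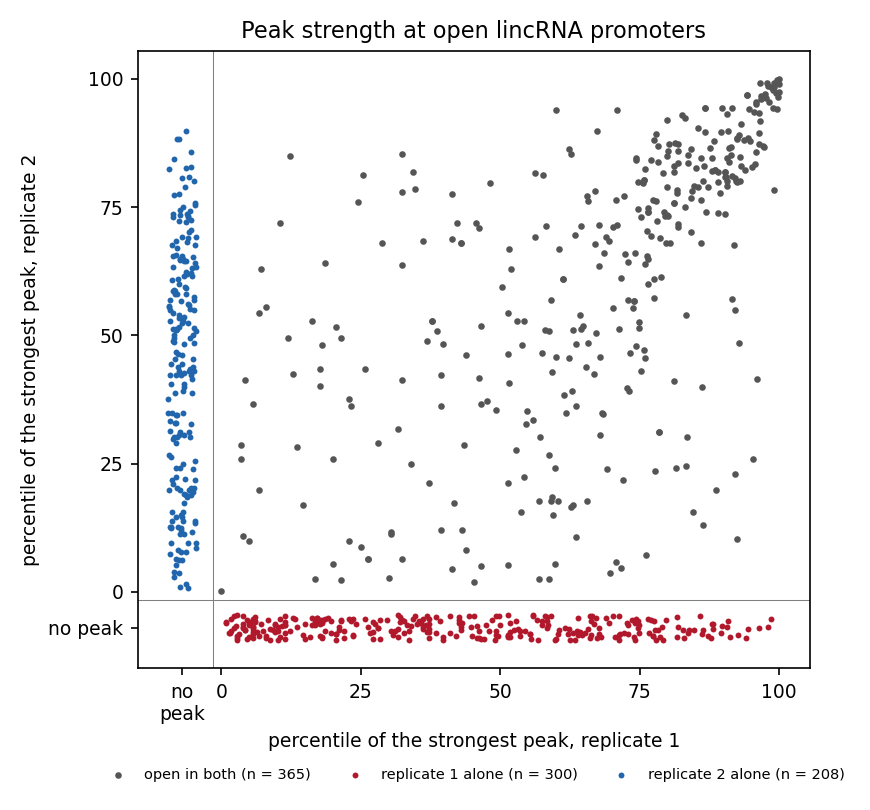
Percentile of the strongest window peak among all peaks of replicate 1 (horizontal axis) and of replicate 2 (vertical axis), 1 point per open lincRNA promoter; points in the strips have no peak in the other library and are spread sideways for display. The 365 shared members crowd at the upper right, and the 300 and 208 members of 1 library alone run mostly through the lower and middle percentiles.

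The 10 strongest members open in both libraries, by mean percentile, all had signals of at least 8.26 in replicate 1 and 16.5 in replicate 2. Gm42418, annotated on chromosome 17 and related to ribosomal RNA, had 117 in replicate 1 and 93.3 in replicate 2, the highest signal of either peak list. Its peak sequence has 2 further copies in the assembled chromosomes of the reference genome (at least 90% identity over 80% of its length). Copies outside these chromosomes were not counted, so its signal and its copy number are uncertain. None of the other 29 peaks searched in this way had such a copy. The coding genes on either side of it, Esp15 and Esp38 of the exocrine gland-secreted peptide family, had no promoter peak in either library.

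Tmem250-ps followed with 11.5 in replicate 1 and 27.0 in replicate 2, beside Lhx3 and Nacc2. Malat1 had 9.72 and 22.5. Its strongest peak lies at -1008 to -889 bp from the annotated 5′ end, and its window held 10 and 13 footprints inside peaks. Gm31812 had 9.78 and 19.4, and its peak spans its 5′ end.

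The coding neighbours of the other members of this group ranged from no peak to strong peaks. Gm15408 had 13.4 in replicate 1 and 16.8 in replicate 2. Its nearest coding gene, Gm42791, had 8.12 and 4.47, and on the other side Hmgb1, which encodes a chromatin protein, had 10.5 and 23.8 at 44338 bp. Gm26812 had 10.6 and 16.5. Its nearest coding gene, Klhdc4, had 5.83 and 7.36, and on the other side the amino acid transporter gene Slc7a5 had 7.39 and 19.3. 4932412D23Rik had 9.52 and 17.5, where the nearest coding gene, the transcription factor gene Zbtb20, had 1.38 and 1.26 and Gap43 on the other side no peak. 1700096K18Rik had 14.0 and 20.7, where the nearest coding gene Cct8l1 had no peak and Xrcc2, 175760 bp away on the other side, had 7.96 and 12.0. The remaining 2, 6720427I07Rik (9.09 and 19.1) and Gm20732 (8.26 and 21.8), stood beside coding genes open in both libraries. Strength at these promoters therefore did not always go with that of the nearest coding gene.

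Of the 8 strongest members open in replicate 2 alone with no peak in either list of replicate 1, Gm44174 and Gm26551 lie within 200 kb of a listed thymocyte marker gene. Gm44174 had no peak in replicate 1 and 5.17 in replicate 2. Its neighbours Cd8a, 20392 bp away, and Cd8b1, 30247 bp away, had no promoter peak in replicate 1 and 10.1 and 10.2 in replicate 2. Gm26551, 13057 bp from Tcf7, had no peak in replicate 1 and 5.67 in replicate 2, while Tcf7 was open in both with 2.58 and 6.72. 2010110G14Rik, 173134 bp from Lef1, a related transcription factor gene, had no peak and 5.18, and Lef1 had 0.737 and 6.32. Gm27162, 232582 bp from Ets1, had no peak and 6.33, and Ets1 had 7.49 and 21.6. These lincRNA promoters thus lacked a peak in replicate 1 also where the coding gene had one.

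A930002I21Rik, with no peak in replicate 1 and 5.83 in replicate 2, lies between Kcna2 and Kcna3. Kcna3, which encodes a potassium channel of T cells, had 0.510 and 9.32. Gm16084 (no peak and 6.91) and Gm2800 (no peak and 5.73) lie on chromosome 12 in a gene-poor stretch, with the nearest coding gene, 3110018I06Rik, open in neither library. Vrk1, the coding gene on their other side, had 5.21 in replicate 1 and 7.73 in replicate 2. Bcl11b, a transcription factor gene needed for T cell commitment, lies 843 kb from Gm16084 and 819.9 kb from Gm2800. It does not flank them and was looked up after the values were seen. BC028471 had the highest signal under the rule for this group, 8.08, with no peak in replicate 1. Its neighbours Medag and Alox5ap had no peak in replicate 2, and Medag had 0.706 in replicate 1.

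The 8 strongest members open in replicate 1 alone with no peak in either list of replicate 2 had signals of 4.37 to 9.12. B930059L03Rik leads with 9.12, but only 12 of the 300 bp of its peak lie in the window. Replicate 2 has a peak that overlaps it just beyond the window, so this call rests on the window's edge. Such an overlap beyond the window occurred at 2 of the 300 members open in replicate 1 alone and at 1 of the 208 open in replicate 2 alone. Less than 50% of the strongest peak lay in the window at 19 of the 300 and 19 of the 208. Gm12249 had 8.46 in replicate 1 and no peak in replicate 2, with 8 footprints inside window peaks. Of its neighbours, Larp1, which encodes an RNA-binding protein, had 3.29 and 4.68, and Hand1 no peak in either library.

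Gm47734 (7.26), Gm37027 (6.26), AC127690.2 (5.11), Gm47889 (4.99), Gm14012 (4.70) and Gm15889 (4.37) followed, each with no peak in replicate 2. Of the 200 bp of the Gm14012 peak 43 lie in the window. AC127690.2 lies 146010 bp from Vegfa, the gene of a vascular growth factor, which had 7.43 in replicate 1 and 13.1 in replicate 2. Gm14012 lies 113593 bp from Bcl2l11, which encodes a protein that promotes cell death, with 5.93 and 19.9. Gm15889 lies 8566 bp from Herpud1, a gene of the endoplasmic reticulum stress response, with 8.97 and 14.5. Cd46, the nearest coding gene of Gm37027, had 4.84 and 3.21. Ly86 and Gm9803, the nearest coding genes of Gm47734 and Gm47889, had no promoter peak in either library.

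**Figure D5:**
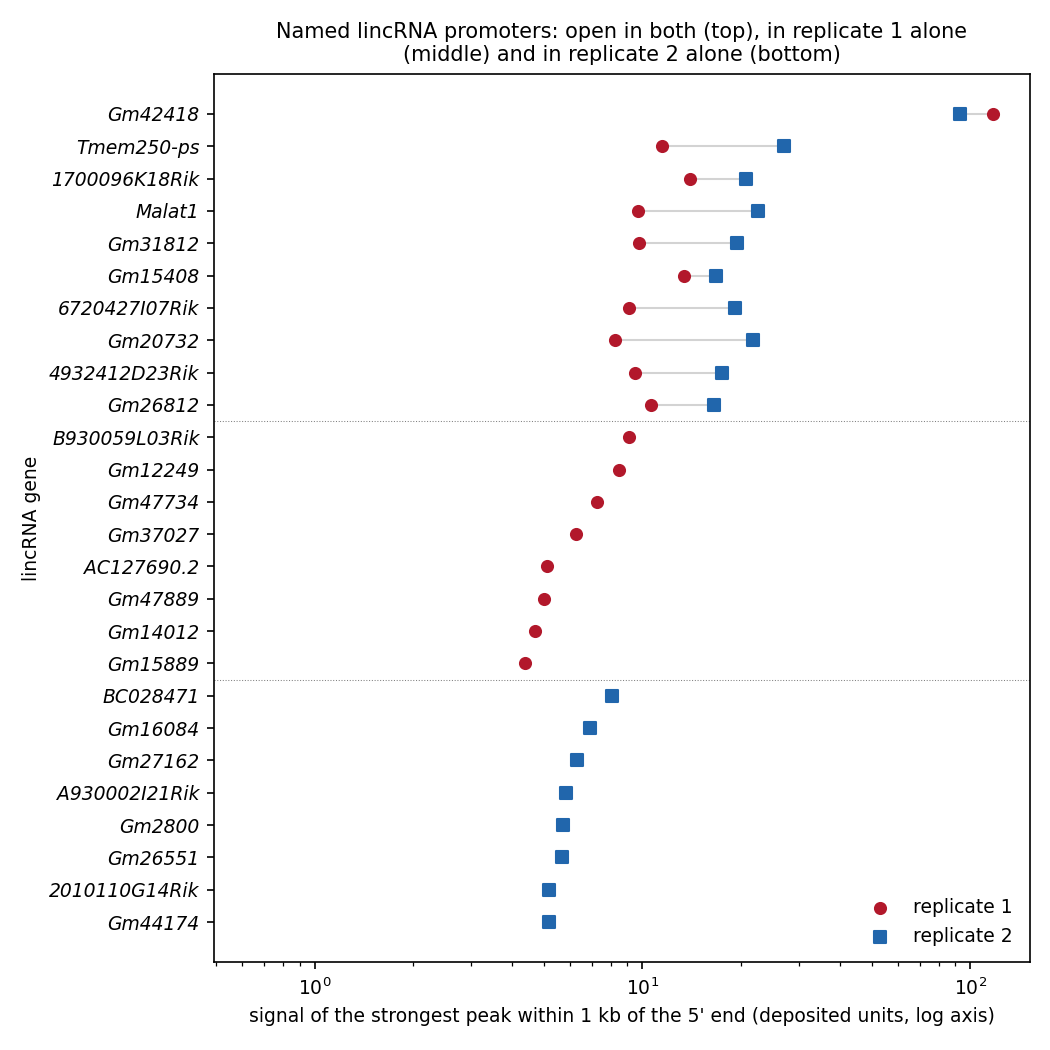
Signal of the strongest peak within 1 kb of the 5′ end (horizontal axis, deposited units, log scale) for the 10 strongest members open in both libraries, and for the 8 strongest in replicate 1 alone and the 8 in replicate 2 alone that had no peak in either list of the other library (top to bottom); red circles are replicate 1 and blue squares replicate 2, and a missing mark means no peak. Gm42418 stands apart at 117 and 93.3, and the members shown for 1 library alone reach 9.12 in replicate 1 and 8.08 in replicate 2.

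Closeness to marker genes was counted for all members. Of 17 members within 200 kb of a thymocyte marker gene 3 were open in replicate 1 and 8 in replicate 2, and 6 were open in replicate 2 alone. Over all members the shares were 14.6%, 12.6% and 4.56%, against 17.6% (interval 6.19 to 41.0), 47.1% (26.2 to 69.0) and 35.3% (17.3 to 58.7) here. These 6 were Gm44110, Gm44174 and Gm44175 near Cd8a and Cd8b1, Gm26551 near Tcf7, and AC161258.2 and Gm19585 near Satb1, a gene of chromatin organisation in thymocytes. Members at the same locus are not independent, and the intervals do not allow for this. Gm44110 had no peak in replicate 1 and 2.68 in replicate 2, and Gm44175 no peak and 3.45. Gm33533, 17006 bp from the T cell receptor kinase gene Zap70, was open in both with 3.06 and 6.98, although Zap70 itself had no promoter peak in replicate 1. Of 13 members within 200 kb of an acinar gene 5 were open in replicate 1, 3 in replicate 2 and 2 in replicate 1 alone. These 2 were AC102548.1 (4.19 in replicate 1), 25115 bp from the pancreatic lipase gene Pnlip, and Gm5463 (2.70), 57528 bp from Gata4. These counts are 38.5% (17.7 to 64.5), 23.1% (8.18 to 50.3) and 15.4% (4.33 to 42.2) of 13. Over all members the shares were 14.6%, 12.6% and 6.58%. For both marker lists this reference is not alike, since it includes members more than 200 kb from any coding start. At 200 to 500 kb those were open in only 6.84% in replicate 1 and 6.72% in replicate 2.

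The nearest protein-coding gene of a member was called open when a peak lay within 1 kb of any of its coding starts, which held for 63.3% of autosomal protein-coding genes in replicate 1 and 60.0% in replicate 2. It was open for 77.1% of open members in replicate 1 (interval 73.8 to 80.2), against 71.3% of closed members (69.8 to 72.7). In replicate 2 it was open for 76.3% of open members (72.6 to 79.6), against 64.5% of closed ones (63.0 to 65.9). The 4558 members have 2651 distinct nearest coding genes, so these counts are not independent. Up to 20 kb the shares were 71.8% (64.3 to 78.3) for open and 67.8% (64.0 to 71.3) for closed members in replicate 1, with intervals that overlapped. In replicate 2 they were 73.3% (65.7 to 79.8) and 62.1% (58.3 to 65.8), with intervals that overlapped only at their edges. From 20 to 100 kb they were 80.6% (76.1 to 84.5) and 71.7% (69.3 to 73.9) in replicate 1. In replicate 2 they were 78.2% (73.2 to 82.6) and 66.8% (64.4 to 69.1), so the intervals overlapped in neither library. Beyond 100 kb they were 74.8% and 72.2% in replicate 1, with intervals that overlapped, and 75.2% (67.1 to 81.8) and 63.3% (61.1 to 65.5) in replicate 2.

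For replicate 2, openness in 1 library alone went partly with that of the neighbour. Coding genes open in replicate 2 alone made up 3.38% of all autosomal ones. They were the nearest gene of 9.13% of members open in replicate 2 alone (19 of 208, interval 5.93 to 13.8), of 2.33% of members open in replicate 1 alone, of 2.47% of those open in both and of 3.72% of those open in neither. Coding genes open in replicate 1 alone made up 6.70% of all. They were the nearest gene of 10% of members open in replicate 1 alone (30 of 300, interval 7.09 to 13.9), of 4.33% of members open in replicate 2 alone, of 4.93% of those open in both and of 10.8% of those open in neither. The share for members open in replicate 1 alone was thus close to that of members open in neither library. Most members open in 1 library alone had a neighbour open in both, 67.7% for replicate 1 and 70.7% for replicate 2. Coding genes open in both made up 56.6% of all.

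Some closed promoters had a peak or interval under the threshold. Among the 208 members open in replicate 2 alone 37 (17.8%) had a peak of the longer list in replicate 1, and among the 300 open in replicate 1 alone 55 (18.3%) had one in replicate 2. Inside the other library's peak an interval with a false discovery rate (FDR) under 0.05 was present at 15.9% of the members open in replicate 2 alone and 17.7% of those open in replicate 1 alone. For protein-coding genes these shares were 28.4% and 33.5%. Of all closed members 7.42% in replicate 1 and 6.20% in replicate 2 had such an interval anywhere in the window.

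Footprints were found at most open lincRNA promoters. At least 1 footprint lay wholly inside a window peak at 610 of 665 open members in replicate 1 (91.7%, interval 89.4 to 93.6) and at 534 of 573 in replicate 2 (93.2%, interval 90.8 to 95). For open protein-coding genes the shares were 97.4% and 98.6%. The median number was 3 per open member in each library, against 6 and 5 per protein-coding gene. Per kb of peak, members had 10.7 and 11.5 footprints and protein-coding genes 11.4 and 13.7. Peak bases beyond the window are in this length, but footprints wholly beyond the window were not counted. These densities are therefore too low where peaks cross the window's edge, and by how much in each class was not measured. Closed members had a footprint anywhere in the window in 2.36% and 3.21%.

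The number of footprints went with peak strength. In replicate 1 a footprint was present at 75.9% of open members whose peak ranked up to percentile 25 and at 99.1% of those above percentile 75, with medians of 1 and 5. In replicate 2 these shares were 79.6% and 100%, also with medians of 1 and 5. Protein-coding genes showed 70.8% and 99.7% in replicate 1 and 84.5% and 99.8% in replicate 2. At members open in both libraries, 60.1% of the footprints of replicate 1 and 59.6% of those of replicate 2 overlapped a footprint of the other library, against 65.1% and 64.9% at protein-coding genes.

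The members with most footprints were not always those with the strongest peaks. 2410080I02Rik, 6326 bp from the transcription factor gene Klf9, had 23 footprints in replicate 1 and 5 in replicate 2, with signals of 6.59 and 0.940. Gm38399 had 20 footprints and a signal of 5.03 in replicate 1 and no peak of the shorter list in replicate 2. Gm6410 had 18 and 22 with signals of 8.04 and 15.9. Gm35035 had 2 in replicate 1 and 19 in replicate 2, although its signals were only 0.721 and 1.44. 4932412D23Rik, among the strongest above, had 16 and 18. At 2410080I02Rik and at Gm35035 the strongest peaks of the 2 libraries did not overlap. Their signals in replicate 1 and replicate 2 are therefore those of different peaks.

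Well-studied noncoding RNAs were followed as a list of 72 symbols, of which 31 are members. The others have another gene type in the annotation (30), lie within 5 kb of a coding start (5) or have no such symbol there (6). Of the 31, 18 were open in replicate 1 and 16 in replicate 2, where 14.6% and 12.6% of all members were open. Both libraries were open at 15, replicate 1 alone at 3 and replicate 2 alone at 1. The list was drawn up with earlier results of these data known.

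Of 5 RNAs of nuclear bodies and chromatin 2 were open, both in each library. They were Malat1, with the values above, and Neat1, the scaffold of nuclear paraspeckles, which had 7.27 in replicate 1 and 11.7 in replicate 2. The Neat1 values are of peaks that did not overlap each other. Miat and, from the Hox clusters, Hotair and Halr1 had no peak of the shorter list in either. Halr1 had a peak of the longer list in replicate 1. All 3 hosts of small nucleolar RNAs were open in both libraries: Snhg6 (4.40 and 7.84), Snhg12 (3.62 and 7.10) and Snhg20 (4.89 and 5.18). Of the 5 microRNA hosts and related genes 4 were open in replicate 1 and 3 in replicate 2. Mir17hg, which carries the miR-17-92 cluster, had 3.27 and 6.00, and Lncpint 2.53 and 1.77. Mir155hg, the host of a microRNA of lymphocyte activation, had 0.776 and 2.91, at percentiles 28.8 and 67.9, again from peaks that did not overlap each other. Mir9-3hg was open in replicate 1 alone with 0.588, and Mir124a-1hg, host of a neuronal microRNA, in neither. Both had a peak of the longer list in replicate 2.

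Of 5 genes of growth and genome stability 5 were open in replicate 1 and 4 in replicate 2. Dubr had 4.97 in replicate 1 and 11.4 in replicate 2, and Epb41l4aos 3.79 and 5.72. Pvt1, the neighbour of the Myc oncogene, had 2.32 and 2.71. 2900097C17Rik, the mouse Norad gene, whose RNA binds Pumilio proteins, had 2.01 and 3.36. Trp53cor1, known as lincRNA-p21 and lying 11800 bp from the cell cycle inhibitor gene Cdkn1a, had 3.89 in replicate 1. In replicate 2 Trp53cor1 had a peak of the longer list only. Of the imprinted genes H19 had no peak in replicate 1 and 0.778 in replicate 2, and Meg3 and Mirg had none in either. Of 7 genes of development 3 were open in replicate 1 and 2 in replicate 2. Lncenc1 had 0.925 and 2.97, Carmn 1.40 and 0.717, and Platr4 of pluripotent cells 3.28 in replicate 1 alone. Rmst of the nervous system, Bvht of the heart, Platr3 and Platr10 had no peak of the shorter list in either library. Bvht had a peak of the longer list in replicate 1. Of 3 RNAs related to ribosomal RNA, Gm26917 and AY036118 were closed in both libraries and Gm42418, described above, open in both.

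Short motifs were counted on both strands in 300 bp centred on the strongest peak. The GC box, GGGCGG, was present at 35.6% of shared members in replicate 1 and 37.5% in replicate 2, against 71.9% and 73.8% of shared protein-coding genes, and in 24.0% and 31.1% of all autosomal peaks. At members open in 1 library alone it was present in 17.3% for replicate 1 and 12.5% for replicate 2. The ETS motif CCGGAAG was present at 11.0% and 10.7% of shared members, against 21.2% and 21.8% of shared protein-coding genes and 4.98% and 7.35% of all peaks.

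The RUNX motif TGTGGT, bound by factors active in T cells among other lineages, was present at 30.3% of members open in replicate 2 alone (interval 24.4 to 36.8) and at 13% of those open in replicate 1 alone (9.66 to 17.3). All autosomal peaks held it in 22.1% in replicate 2 and 18.1% in replicate 1, and protein-coding genes open in 1 library alone in 21.4% for replicate 2 and 12.9% for replicate 1. The GATA motif AGATAA ran the other way, with 8.17% of members open in replicate 2 alone (5.17 to 12.7) and 13.7% of those open in replicate 1 alone (10.2 to 18), and its intervals overlapped. All peaks held it in 8.94% in replicate 2 and 12.5% in replicate 1. Protein-coding genes open in 1 library alone held the GATA motif in 6.71% for replicate 2 and 7.29% for replicate 1. The E box CAGCTG was present in 29.3% of members open in replicate 2 alone and 32.3% of those open in replicate 1 alone, against 21.9% and 23.3% of all peaks of those libraries. At protein-coding genes open in 1 library alone it was present in 27.6% for replicate 2, close to the members, and 24.9% for replicate 1. Matches of this length arise often by base composition and are a description of letters only.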

How the data were processed

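DNase-seq was analysed in 2 libraries of 1 group. Per the deposited notes, the authors derived every list from the filtered mm10 alignment of the same library. The deposited peak lists give a signal per peak (column 7), and the deposited FDR tables a p-value-like false discovery rate per interval, listed under 0.05. The deposited footprint lists hold a score that was 0.01 in every row and was not used. The sources used here do not give the aligner, callers, thresholds or signal scaling. No depth is given, so intervals cover counting error only.

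Gene 5′ ends came from GENCODE vM21 on GRCm38, and sequences from that genome. Overlaps were computed with Python 3.11.15, NumPy 2.4.6 and pandas 2.3.3 and were tested on simulated regions. Further copies were sought with blastn 2.17.0+. Named were the 10 strongest members open in both libraries, 8 open in each library alone with no peak in either list of the other, listed well-studied RNAs, the 3 members with most footprints per library, and coding neighbours of the first 3 sets. The neighbours of 1 member are not reported here. Alternatives changed the window, peak list, peak strength, start, coding gap, overlap, annotation level, footprint and neighbour rules. Members and lists were chosen with earlier results of these data known.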

Additional observations from a re-analysis of the deposited data

How the results depend on the processing

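Of 118 alternative values for 11 results 78 stayed within the 95% interval of the reported value. Windows of 500 and 2500 bp gave open shares of 11.8% and 21.1% in replicate 1, 9.94% and 17.6% in replicate 2, 5.99% and 11.9% in both, 5.77% and 9.15% in replicate 1 alone and 3.95% and 5.68% in replicate 2 alone. The longer peak lists gave 19.1%, 17%, 10.6%, 8.51% and 6.47% for these 5 shares, and the stronger 50% of peaks 8.80%, 7.35%, 4.65%, 4.15% and 2.70%. The share in both is replaced by 12.6% without replicate 1 and 14.6% without replicate 2. The longer lists lowered the median signal to 1.11 in replicate 1 and 1.39 in replicate 2, and the stronger peaks gave 2.67 and 3.77. Footprints were present at 81.4% and 85.8% of open members with the longer lists, 97.3% and 96.4% with the stronger peaks, 94.7% and 96.9% when counted anywhere in the window, 82.3% and 83.6% with footprints of at least 10 bp only, and 95.4% in replicate 2 with the 2500 bp window. The nearest coding gene was open for 81.1% of open members with the longer list in replicate 1, for 73.6% and 69.6% with the stronger peaks, and for 71.3% and 71.6% when only the gene 5′ end counted. The causes were not tested, apart from what each choice adds or removes by construction. Any transcript start of the gene, a 10 kb coding gap, all transcripts of coding genes, the 50% overlap rule, annotation levels 1 and 2, and 1 member per overlapping group moved none of the 11 results out of its interval. No paired analysis was possible because there is 1 group. With unknown depth, a closed call means that the peak list used held no peak in the window, not that the promoter was inaccessible.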
